A study of Cucumis x hytivus and Cucumis hystrix and Cucumis sativus with 8 samples.

Results

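The miR156 and miR157 sequences were followed in leaves of a synthetic allotetraploid cucumber relative and its diploid parents. They comprise the 29 mature sequences of the deposited miRNA table, out of 733, whose name holds miR156 or miR157 followed by a non-digit. Of these, 27 are named miR156 and 2 are named miR157. The groups were young leaves of the allotetraploid Cucumis ×hytivus, mature leaves of the same species, mature leaves of the wild parent C. hystrix, and mature leaves of the cucumber parent C. sativus, cultivar 'BeijingJietou'. Allotetraploid plants were in selfed generation 10. The young leaf was the topmost of the plant and the mature leaf the first to have fully developed, so leaf age and position differ together. All plants were grown in climate chambers at 25 °C by day (14 h) and 20 °C by night (10 h) and moved to pots on day 20 after sowing. Each group had 2 libraries. Nothing in the labels says that these came from separate plants, so p-values measure the spread between these libraries, which may be technical.

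Plant miR156 and miR157 are closely related small RNAs that guide the cleavage and silencing of messages for SPL (SQUAMOSA promoter-binding protein-like) transcription factors. High miR156 holds a shoot in its juvenile phase. As miR156 declines with plant age in Arabidopsis and many other species, SPL factors rise, and they in turn promote the genes of miR172, which acts on AP2-like factors. Each miR156 or miR157 hairpin precursor gives a 5p strand, normally the active one, and a 3p strand, the opposite arm, which is mostly degraded. SPL transcripts were not measured here.

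The 5p sequences fall into 2 types by a short run of bases. Those with GAAGAG (12 sequences) hold the run of Arabidopsis miR156, and those with GAAGAT (6 sequences) that of Arabidopsis miR157, although the table names every GAAGAT sequence miR156. The hairpin on chromosome 1 that holds miR156b_cme-22nt also holds the opposite-arm entry that the table names miR157c-3p_ath. The other 11 sequences are entries of the 3p arm. The tag that ends a name is copied from the table, and the length in nucleotides (nt) is added where a name covers several sequences. The sequences below carry nearly all the results. Capitals mark the seed (bases 2 to 8), and T stands for U, as in the table. The miR157 type comes before the miR156 type, and the opposite arms close the list.
miR156b_cme-21nt: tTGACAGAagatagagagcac
miR156b_cme-22nt: tTGACAGAagatagagagcact
miR156f_cme: tGACAGAAgatagagagcact
miR156b_bna: tTTACAGAagatagagagcact
miR156e_cme: tTGACAGAagatagagggcac
miR156a_cme-21nt: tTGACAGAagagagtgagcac
miR156a_cme-20nt: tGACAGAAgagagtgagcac
miR156b-5p_mtr: tGACAGAAgagagtgagcact
miR156b-p3_cme: gCTCTCTAtgcttctgtcatc
miR156i-p3_cme: tAGTATGTgctcatttctcttt
miR156j-p3_cme: tGCTCACTtctctttctgtcagt
miR156c-p3_cme: tGCTCACTtctctttctgtcagc

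Counted from 1 at the 5′ end of miR156a_cme-21nt, miR156b_cme-21nt differs from it by G12T and T15A, outside the seed. Both begin with TTG and share the seed TGACAGA with miR156b_cme-22nt and miR156e_cme. Dropping the 5′ T shifts the seed by 1 base to GACAGAA in miR156f_cme, miR156a_cme-20nt and miR156b-5p_mtr. miR156f_cme thus equals miR156b_cme-22nt without its starting base. Relative to miR156b_cme-22nt, miR156b_bna carries G3T, which alters the seed, and miR156e_cme carries A17G. The opposite arms miR156j-p3_cme and miR156c-p3_cme differ by T23C alone.

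The table places 24 of the 29 sequences in the genome, on a build that no label or header names. They lie in 22 distinct intervals on chromosomes 1, 2, 3, 4 and 6. Several of these intervals overlap, so the number of separate loci is smaller. No gene annotation was used, so the gene context of these intervals is not stated. miR156b_cme-21nt and its opposite arm miR156b-p3_cme share the interval 2522424 to 2522602 on the plus strand of chromosome 1. miR156a_cme-21nt is listed at 2 loci, with miR156j-p3_cme on the minus strand of chromosome 4 (22620589 to 22620684) and with miR156d-p3_cme on the plus strand of chromosome 2 (19844375 to 19844475). miR156a_cme-20nt is listed at 3 loci, among them the plus strand of chromosome 2 (1701649 to 1701821) with miR156i-p3_cme, and the plus strand of chromosome 1 (13072556 to 13072660) with miR156c-p3_cme. One of the 2 intervals of miR156f_cme, on the minus strand of chromosome 3 (22276745 to 22276778), spans 34 bases. The 5 sequences without a position include miR156b_bna.

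Levels are given as CPM, the usual depth-scaled count, relative to a library size scaled by TMM, a method that evens out libraries on most of their entries. Libraries held 99193 to 464301 reads with each sequence counted once, and 1 read was worth 2.534 to 5.894 CPM. The C. sativus libraries were the least alike, with a Spearman correlation of 0.572 over the 208 tested entries, against 0.823 to 0.952 in the other groups. C. sativus replicate 2 was the smallest library, and in it families that resemble rRNA or tRNA fragments took 56.9% of reads, against 17.1% in replicate 1 and 6.09% to 17% elsewhere. The main values that use C. sativus are therefore also given without 1 of its libraries, apart from fold changes against a library with no read. Of the 29 sequences, 13 passed the filter on low counts and were tested. They hold 99.4% of the family's 25176.9 reads, and the 2 leading ones hold 73.7%. The 16 that did not pass had 0.5 to 18 reads each over all libraries.

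Together the 29 sequences made up 0.316% and 0.345% of listed reads in young allotetraploid leaves and 2.08% and 1.51% in mature ones. C. hystrix had a share of 1.48% and 0.83%, and C. sativus one of 2.06% and 0.476%. The summed level was 3720 and 3792 CPM in young leaves and 19272 and 19876 CPM in mature allotetraploid leaves. C. hystrix held 18264 and 10805 CPM, C. sativus 16607 and 2389 CPM. In CPM, young leaves lay below every mature library but C. sativus replicate 2. The TMM factor of that library was 2, against 0.762 to 1.246 in the others. As a share of listed reads, young leaves lay below every mature library.

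**Figure D1:**
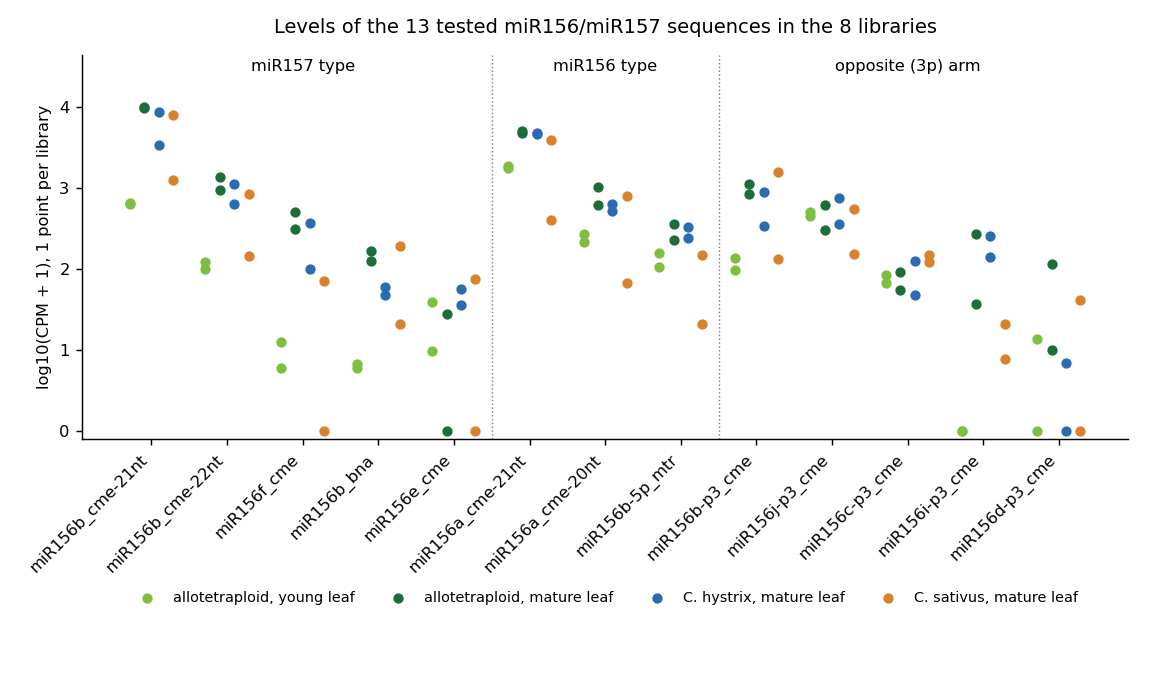
Level of each of the 13 tested sequences as log10(CPM + 1), 1 point per library, coloured by group and ordered by sequence type. Young allotetraploid leaves (light green) lie below mature ones (dark green) for 9 of the 13, and for 29.8% of all 208 tested entries. The C. sativus points (orange) lie apart for miR156a_cme-21nt, at 3999 and 404.9 CPM.

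Young and mature leaves were compared within the allotetraploid. Among the 3 most abundant members, those of the miR157 type had the widest differences. miR156b_cme-21nt, the most abundant member, read 631 and 650 CPM in young leaves, against 10077 and 9830 when mature. The groups do not overlap, and the log2 fold change of young over mature leaves was −3.96 (standard error, SE, 1.17), which did not pass (edgeR quasi-likelihood, Benjamini-Hochberg adjusted p = 0.11 over 208 entries). miR156b_cme-22nt, which is the same sequence with 1 more T, read 121.6 and 99.11 against 963 and 1364 CPM (−3.39, SE 1.12, adjusted p = 0.15). miR156f_cme was at 5.069 and 11.66 against 313.5 and 507.9 CPM (−5.56, SE 1.58, adjusted p = 0.088). miR156b_bna was at 5.069 and 5.83 against 125.4 and 167 CPM (−4.64, SE 1.49, adjusted p = 0.14). In these members both young libraries lay below both mature ones. The young values of miR156f_cme rest on 6 reads over both libraries together, and those of miR156b_bna on 4. miR156e_cme, the remaining tested member with GAAGAT, read 38.01 and 8.745 against 26.87 and 0 CPM, so its groups overlap.

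The 3 tested members with GAAGAG, of 12 in all, were also lower in both young libraries, by smaller ratios and without a call. miR156a_cme-21nt read 1782 and 1903 CPM in young leaves, against 5043 and 4887 when mature (−1.43, SE 1.12, adjusted p = 0.75). miR156a_cme-20nt was at 217.9 and 271.1 against 1030 and 615.7 CPM. miR156b-5p_mtr, its form with 1 more T, was at 106.4 and 157.4 against 362.8 and 229.6 CPM. The lowest adjusted p among these 3 was 0.56.

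The one member that passed came from an opposite arm. miR156i-p3_cme fell in young leaves, where no library held a whole read, from 35.83 and 271.3 CPM in the mature libraries (edgeR quasi-likelihood, adjusted p = 0.029). Counting 3 reads over both young libraries as the limit, it was at least 41.4-fold lower. The mature libraries held 8 and 78 reads, and the limit was 8.81-fold with mature replicate 1 alone and 66.7-fold with mature replicate 2 alone. Its 5p partner on chromosome 2, miR156a_cme-20nt, had a log2 fold change of −1.75 (SE 1.11). The call on miR156i-p3_cme was lost without young replicate 1 (adjusted p = 0.5), young replicate 2 (0.52), mature replicate 1 (0.11), mature replicate 2 (0.36) or C. hystrix replicate 2 (0.076), and its adjusted p spanned 3.2e-07 to 0.52 across 17 alternatives.

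The other opposite arms differed among themselves. miR156b-p3_cme, from the hairpin of miR156b_cme-21nt, read 136.9 and 96.19 against 846.5 and 1134 CPM (−3.08, SE 1.19, adjusted p = 0.23), a difference of the same order as that of its partner. miR156j-p3_cme, from the chromosome 4 hairpin of miR156a_cme-21nt, was at 511.9 and 460.6 against 304.6 and 615.7 CPM. miR156c-p3_cme was at 83.63 and 67.04 against 53.75 and 90.44 CPM. The groups overlap in both, and their log2 fold changes of +0.08 and +0.06 turned to −0.25 and −0.28 when fragment-like families were left out of the scaling. miR156d-p3_cme, from the other hairpin of miR156a_cme-21nt, had 5 reads in young and 35 in mature leaves, with 33 of those in mature replicate 2.

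**Figure D2:**
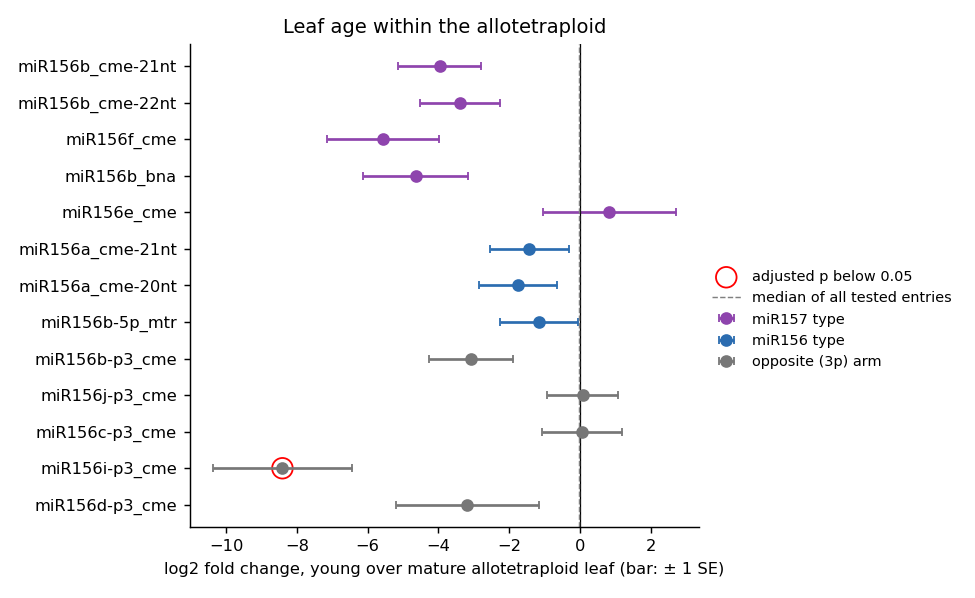
Log2 fold change of young over mature allotetraploid leaves (x axis, bars ± 1 SE) for the 13 tested sequences, coloured by type, with the single call at adjusted p below 0.05 circled and the median of all 208 entries dashed. 4 of the 5 miR157-type sequences lie between −5.56 and −3.39, the 3 of the miR156 type between −1.75 and −1.16. The circled value rests on young libraries with no whole read and is no bound.

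Of the 13 that passed the filter, 1 was called lower and 0 higher, where 1.92% of all 208 entries were called lower and 0.0% higher. At unadjusted p under 0.05 there were 6 of the 13, and 27 of the 208. Their median log2 fold change was −3.08, against −0.03 over all entries, and 9 had both young libraries below both mature ones, as did 29.8% of all entries. A member abundant in 1 group alone can pass the filter through that group, so these counts describe the 13 and not the family. The 13 are also not independent of each other, here and in the comparisons below. Several are listed at overlapping intervals or differ by 1 base. The share of fragment-like families moved in the same direction, at 6.09% and 6.68% of reads in young and 17% and 11.5% in mature leaves, and 39 of their 41 tested entries had a log2 fold change below 0 (median −1.02). With those families left out before scaling, 4.79% of the remaining 167 entries were called, and 4 of the 13 were called lower, miR156b_cme-21nt at −4.31 and miR156b_cme-22nt at −3.74 (adjusted p = 0.048 for each), miR156f_cme at −5.88 (0.035) and miR156i-p3_cme (0.025). The count was 6 without C. sativus replicate 1 or replicate 2, where 6.25% and 7.21% of all entries were called. It was 2 without C. hystrix replicate 1 (2.88% of all entries), and 0 without C. hystrix replicate 2 or any allotetraploid library (0.0% of all entries).

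The balance of the types differed between the young and mature allotetraploid libraries. The miR157 type held 27.4% and 24.7% of the reads of both types in young leaves and 63.9% and 67.3% in mature allotetraploid leaves (26% ± 1.91 against 65.6% ± 2.40, SD, n = 2). In C. hystrix it held 65.0% and 43.5%, in C. sativus 64.9% and 74.1%, so that the young libraries were the lowest of the 8. An exact two-sided permutation test of young against mature gave p = 0.33, the smallest that 2 libraries against 2 allow. Read for read, miR156b_cme-21nt stood to miR156a_cme-21nt at 0.354 and 0.342 in young leaves, and at 2.00 and 2.01 in mature allotetraploid leaves. For C. hystrix this ratio was 1.87 and 0.743, for C. sativus 2.00 and 3.12. How reads of a sequence with several loci were divided is not given, so the absolute balance is uncertain. With every listed locus added, the share of the miR157 type was 15.4% and 13.6% in young and 45.8% and 50.5% in mature leaves.

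**Figure D3:**
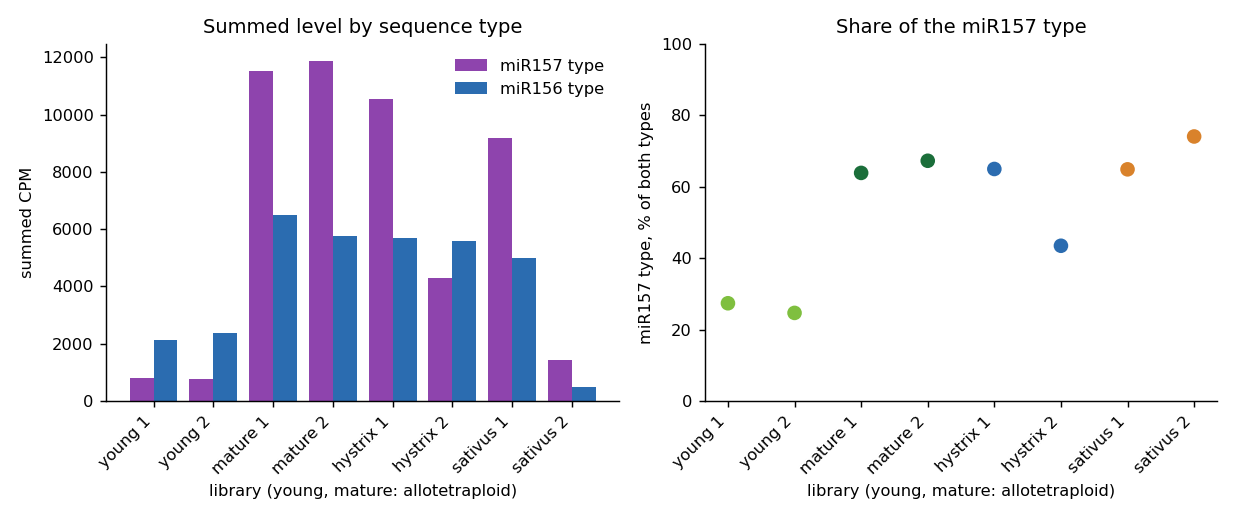
Left, summed CPM of the miR157 type (purple) and the miR156 type (blue) in each library; right, the miR157 type as a percentage of both, 1 point per library. Young leaves are the lowest at 27.4% and 24.7%, next to C. hystrix replicate 2 at 43.5%.

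Ratios of forms that differ in their starting base were also compared. The table lists miR156b_cme-22nt on chromosome 1 and miR156f_cme on chromosome 3, and miR156a_cme-21nt and miR156a_cme-20nt share no listed interval. A different start and a different hairpin therefore cannot be told apart in these ratios. In the miR157 type, miR156b_cme-22nt outnumbered miR156f_cme, which ends alike and starts 1 base later, 24 and 8.5 to 1 in young leaves and 3.07 and 2.68 to 1 in mature ones. For C. hystrix the ratio was 3.11 and 6.41. It was 12.1 in C. sativus replicate 1, while replicate 2 had no read of miR156f_cme. The young values rest on 6 reads of miR156f_cme in both libraries together. In the miR156 type, the ratio of miR156a_cme-21nt to the later-starting miR156a_cme-20nt was 8.17 and 7.02 in young and 4.90 and 7.94 in mature leaves, which overlap.

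The opposite arms took a larger part of the family in young leaves, 21% and 17.1%, than in mature allotetraploid leaves, 6.53% and 11.3%. C. hystrix had 11.3% and 8.4%, C. sativus 14.7% and 19.1%. The exact permutation test of young against mature again gave its smallest possible p of 0.33. On chromosome 1, miR156b_cme-21nt exceeded its opposite arm miR156b-p3_cme 4.61-fold and 6.76-fold in young and 11.9-fold and 8.67-fold in mature leaves. On chromosome 4, miR156a_cme-21nt exceeded miR156j-p3_cme 3.48-fold and 4.13-fold in young and 16.6-fold and 7.94-fold in mature leaves. Neither pair of groups overlaps. Reads of miR156a_cme-21nt may also come from its locus on chromosome 2, so that ratio is not of 1 hairpin alone. The same holds for miR156a_cme-20nt, which exceeded miR156c-p3_cme 2.61-fold and 4.04-fold in young and 19.2-fold and 6.81-fold in mature leaves. The pair of miR156a_cme-20nt and miR156i-p3_cme ran the other way, since young leaves held no whole read of the opposite arm, while the ratio was 28.8 and 2.27 in mature leaves.

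**Figure D4:**
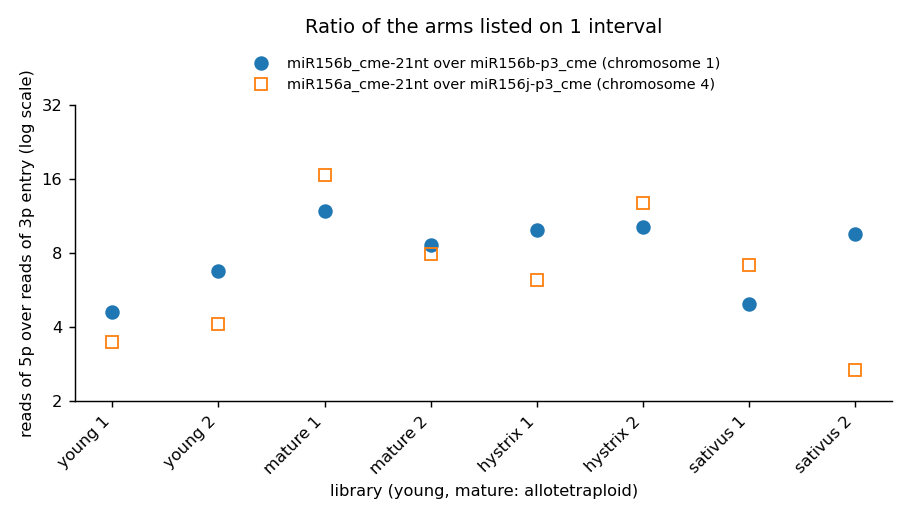
Reads of the 5p entry over reads of the 3p entry listed in the same interval (log scale), 1 point per library, for the chromosome 1 hairpin (circles) and the chromosome 4 hairpin (squares). Both ratios are lower in young allotetraploid leaves (3.48 to 6.76) than in mature allotetraploid ones (7.94 to 16.6). C. sativus replicate 2 has the lowest square at 2.67, and C. sativus replicate 1 has a circle at 4.97, between those of the young leaves.

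The mature allotetraploid was set against its wild parent C. hystrix, and no member passed the test. miR156b_cme-21nt was at 10077 and 9830 CPM in the allotetraploid and 8896 and 3478 in C. hystrix (+0.69, SE 1.05, edgeR quasi-likelihood adjusted p = 0.98). miR156b_cme-22nt was at 1144 and 642.5 CPM in C. hystrix (+0.38, SE 1.02, adjusted p = 0.98). miR156a_cme-21nt was at 5043 and 4887 against 4765 and 4680 CPM, a log2 fold change of +0.07 (SE 1.10, adjusted p = 0.98) whose sign was negative with no filter on low counts or with every locus added. miR156b_bna was at 60.23 and 47.16 CPM in C. hystrix and above them in both allotetraploid libraries (+1.43, SE 1.27, adjusted p = 0.98). miR156d-p3_cme had 35 reads in the allotetraploid, 33 of them in 1 library, and 1 in C. hystrix (fitted log2 fold change +4.43, SE 2.37, adjusted p = 0.98). The ratio of the pooled CPM was 31 (95% exact interval 5.2 to 1257.6, counting error only), and the log2 fold change was +1.69 without mature allotetraploid replicate 2. None was called, as for 0.0% of all entries. Higher in both allotetraploid libraries were 4 of the 13 and 8.17% of all entries. Lower in both were 1 of the 13 (miR156e_cme) and 10.6% of all entries. In edgeR 0 of the 13 had an unadjusted p under 0.05 (DESeq2 and limma-voom also called 0). The median of the 13 was +0.38, against +0.17 over all entries, and the SEs of about 1 log2 unit leave 2-fold differences within the error.

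Against the cucumber parent no member passed, and the values depended on which C. sativus library was kept. miR156b_cme-21nt was at 7994 and 1265 CPM in C. sativus (+1.10, SE 1.05, edgeR quasi-likelihood adjusted p = 0.92). miR156b_cme-22nt was at 854.9 and 146.8 CPM (+1.21, SE 1.03, adjusted p = 0.92). miR156a_cme-21nt was at 3999 and 404.9 CPM (+1.17, SE 1.11, adjusted p = 0.92). Replicate 1 was close to the mature allotetraploid in each, and replicate 2 far below. Without replicate 2 the log2 fold changes were +0.32, +0.44 and +0.31 for these 3 members in that order. Without replicate 1 they were +2.98, +2.98 and +3.61, and passed (adjusted p = 0.029, 0.018 and 0.0099).

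The members of smallest p, a pair of less abundant ones, did not pass either. miR156i-p3_cme was at 6.732 and 20.24 CPM in C. sativus, below both mature allotetraploid libraries (+3.52, SE 1.43, edgeR quasi-likelihood adjusted p = 0.58), and its log2 fold change was +4.44 without C. sativus replicate 2, +2.91 without C. sativus replicate 1 and +1.42 without mature allotetraploid replicate 2. miR156f_cme was at 70.68 and 0 CPM (+3.47, SE 1.40, adjusted p = 0.58), and +2.53 without replicate 2. Without replicate 1, C. sativus held no read of it, and it passed (adjusted p = 0.0087). In total 0 of the 13 were called, where 0.481% of all entries were, with 2 of the 13 at unadjusted p under 0.05 (DESeq2 and limma-voom also called 0). Both allotetraploid libraries lay above both of C. sativus in 6 of the 13, and in 19.2% of all entries. They lay below both in 1 of the 13 (miR156c-p3_cme), and in 10.6% of all entries. Without C. sativus replicate 1 the count of calls was 7, each higher in the allotetraploid, but 24.5% of all entries were then called. It was 0 without replicate 2. The median of the 13 was +1.10 against +0.16 over all entries, and with RLE scaling, which moved the median of all entries to −0.22, it was +0.96. Without replicate 2 it was +0.31.

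The parents were compared with each other on the same libraries. miR156b_cme-21nt (+0.42, SE 1.04, adjusted p = 0.99) and miR156b_cme-22nt (+0.83, SE 1.03, adjusted p = 0.96) overlapped between C. hystrix and C. sativus, and the former turned to −0.37 without C. sativus replicate 2 and to −0.42 without C. hystrix replicate 1. miR156a_cme-21nt was higher in both C. hystrix libraries (+1.10, SE 1.11, adjusted p = 0.96), and at +0.24 without C. sativus replicate 2. The widest difference among the 13 was that of miR156i-p3_cme, at 255.1 and 141.5 CPM in C. hystrix against 6.732 and 20.24 in C. sativus (+3.88, SE 1.44, adjusted p = 0.36). Its sign held in all 17 alternatives (+3.18 to +4.80), and it passed in 0 of them. Its 5p partner miR156a_cme-20nt was at 637.7 and 530.5 CPM in C. hystrix, against 797.7 and 65.79 CPM for C. sativus, which overlap. miR156f_cme, at 368.5 and 100.2 against 70.68 and 0 CPM, followed (+2.67, SE 1.37, adjusted p = 0.87, and +1.74 without C. sativus replicate 2). None of the 13 was called by edgeR, against 0.962% of all entries, with 1 of the 13 at unadjusted p under 0.05 (DESeq2 and limma-voom called 0). Both C. hystrix libraries lay above both of C. sativus in 4 of the 13, and in 18.8% of all entries. Without C. sativus replicate 1, where 22.6% of all entries were called, the count was 5, each higher in C. hystrix, among them miR156a_cme-21nt (+3.54, adjusted p = 0.01), miR156b_cme-22nt (+2.60, adjusted p = 0.031) and miR156f_cme, of which the remaining C. sativus library held no read (adjusted p = 0.01).

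The mature allotetraploid was also set against a mid-parent value, the average of the parental log levels, and no member was called. The log2 fold change was +0.89 for miR156b_cme-21nt (SE 0.88), +0.62 for miR156a_cme-21nt (SE 0.93) and +0.80 for miR156b_cme-22nt (SE 0.86), each at edgeR quasi-likelihood adjusted p = 0.99. miR156f_cme was at +2.14 (SE 1.06, adjusted p = 0.99) and miR156d-p3_cme at +2.99 (SE 1.67, adjusted p = 0.99). Without C. sativus replicate 2 they were at +1.66 and +2.55, and without replicate 1 C. sativus held no read of either. miR156d-p3_cme was at +0.25 without mature allotetraploid replicate 2. Over all entries 0.0% were called, with 0 of the 13 at unadjusted p under 0.05 (DESeq2 and limma-voom called 0). Without C. sativus replicate 1 there were 3 calls, all higher, where 9.62% of all entries were called. They were miR156a_cme-20nt (+2.06), miR156a_cme-21nt (+1.84) and miR156f_cme. Without replicate 2, miR156b_cme-21nt was at +0.50, miR156a_cme-21nt at +0.19 and miR156b_cme-22nt at +0.41. These 4 comparisons of mature leaves share libraries and are not independent of each other.

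Ordered by level, miR156b_cme-21nt was lowest in young allotetraploid leaves, then in C. sativus, C. hystrix and the mature allotetraploid. C. sativus and C. hystrix overlap, and their order turned without C. sativus replicate 2 (log2 fold change of C. hystrix over C. sativus −0.37). The mature allotetraploid exceeds C. hystrix by less than 1 SE. For miR156a_cme-21nt, C. sativus replicate 2 at 404.9 CPM fell below the young leaves, so those groups overlap. Young leaves were not tested against the parents.

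Across the 8 libraries, the Pearson correlation of log2(CPM + 1) with miR156b_cme-21nt was 0.982 for miR156b_cme-22nt, 0.960 for miR156b_bna and 0.959 for its opposite arm miR156b-p3_cme. The other tested members of the miR157 type, miR156f_cme and miR156e_cme, had 0.855 and 0.151. It was 0.711 for miR156a_cme-21nt, 0.323 for miR156j-p3_cme and 0.131 for miR156c-p3_cme. Of the 195 tested entries outside the family, the 3 nearest were miR397_cme (0.872), a regulator of laccases, the fragment-like miR6173_hbr (0.859) and miR169f_cme (0.847), of a family that acts on NF-YA factors. The libraries fall into groups and share their scaling, so these values describe the pattern and carry no test.

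Of the related families, miR172 had 6 tested entries and miR535, whose sequence resembles that of miR156, had 1, while the single miR529 entry had too few reads to test. Summed over its entries, miR172 read 582.9 and 699.6 CPM in young against 859.9 and 1148 CPM in mature allotetraploid leaves. C. hystrix had 1038 and 1037 CPM, C. sativus 848.2 and 248 CPM. None of the 6 was called in any of the 5 comparisons, with a median of −0.83 in young against mature leaves. Among the 6 are miR172c-p5_cme (−2.14, SE 1.24) and miR172b-p5_cme (+1.5, SE 1.26), named for the 5p arm. The median and the sums of both families thus mix arms. The summed level of the miR156 and miR157 sequences was 6.38 and 5.42 times that of miR172 in young leaves, and 22.4 and 17.3 times in mature ones. miR535_aqc read 22.81 and 0 against 120.9 and 0 CPM, which overlap.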

How the data were processed

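Small RNA was profiled in 8 leaf libraries, placed in 4 groups of 2 by their titles. Per the labels' protocols, TRIzol extracts were sequenced on an Illumina HiSeq. The same protocols describe poly(A) selection of mRNA and speak of 4 libraries, and they do not describe how small RNA libraries were made. The submitters' processing notes list Bowtie 0.12.8. No source used here names the genome build, miRBase release or counting rule. Raw reads, as the authors deposited them, were taken for estimated counts, since 80.5% of them are whole within 1e-6 and the rest hold fractions, and they were rounded for the tests. The deposited normalized reads, a signal made by the authors, equal the raw reads times 1 constant per library and were not used further.

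Each mature sequence was taken once (733 from 843 lines, and 29 from 38 lines for miR156 and miR157). Lines of the same sequence had the same values. The analysis used edgeR 4.0.16 in R 4.3.3 on all 8 libraries, with filterByExpr (208 entries kept), TMM scaling, robust quasi-likelihood fits with group as the only term (4 residual degrees of freedom), and two-sided Benjamini-Hochberg adjusted p-values over the 208 entries with a threshold of 0.05. SE is the size of a log2 fold change divided by the square root of F. DESeq2 1.42.0 and limma 3.58.1 were alternatives. The fits were also run on simulated counts with a fixed spread, a check of the code that does not gauge their power at the spread of these libraries. Fold changes with tests are given for members called, the 3 most abundant and the 2 others of smallest p in each comparison, and for further members as a description. The fragment-like list holds the families miR2916, miR5368, miR894, miR4995, miR6173, miR6300, miR6478, miR5077, miR5072, miR5059, miR5139 and miR8155. Members, lists and tests were chosen with earlier results of these data known. Precision is limited by read number, and limits from a count of 0 (3 reads) cover counting error only.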

Additional observations from a re-analysis of the deposited data

How the results depend on the processing

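For young against mature leaves the count of members called was 1. It was 2 with RLE scaling (3.37% of all entries called), 4 without fragment-like families (4.79%), 6 with DESeq2 (8.17%), 2 with limma-voom (2.88%) and 7 with only the groups compared in the fit (23.1%), each lower in young leaves, and 1 with no filter, with no robust estimation or with every locus added. Leaving out 1 library also moved this count, as given above beside the share of all entries. Against C. sativus, between the parents and against the mid-parent, the count of 0 moved only when C. sativus replicate 1 was left out. The share of all entries called then rose as well. Against C. hystrix the count stayed at 0 whichever library was left out. The other settings left these 4 counts at 0. The causes were not tested. Signs turned in 4 of 442 values of named members: miR156a_cme-21nt against C. hystrix was −0.11 with no filter and −0.03 with every locus added, and miR156b_cme-21nt between the parents was −0.42 without C. hystrix replicate 1 and −0.37 without C. sativus replicate 2 (up to +2.29 without C. sativus replicate 1). Of the rest, 400 kept their sign and their side of the threshold, 5 no longer passed and 33 passed in addition. RLE scaling moved the median log2 fold change of all entries from +0.16 to −0.22 against C. sativus and from −0.11 to −0.34 between the parents.

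Whether same-numbered libraries share more than a number is not known. Over 208 entries their deviations correlated at −0.124 to 0.269 between groups, highest for young allotetraploid leaves with C. hystrix. With the replicate block, 3 members were called in young against mature leaves, among 9 entries in all against 4 without it, and 0 in the other comparisons. For the parents, whose numbers gave −0.124, a block with crossed numbers, chosen after seeing the data, also gave 0 members and 1 entry in all. Without the TMM factor, miR156b_cme-21nt read 536.3 and 590.8 against 10868 and 7472 CPM in young and mature leaves, so the groups stayed apart. Depth limits the 16 untested sequences, and an arm left with 1 library was assumed to vary like the other groups.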

Other observations

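Among the 16 sequences with too few reads to test, several were found in part of the groups. miR156a_mtr had 1 and 2 reads in young and 3 and 4 in mature allotetraploid leaves and 0 in all 4 parental libraries, where a count of 0 allows up to 3 reads. miR157c-p3_ath had 5 and 5 reads in young leaves, 0 and 0 in mature allotetraploid leaves. C. hystrix had 1 and 0 of it, C. sativus 4 and 3. miR156h-p3_cme had 7 and 3 reads in young leaves, 3 in C. sativus replicate 1 and 0 in the other libraries. miR156c-p3_smo had 11.5 reads in C. sativus replicate 1 and at most 2 in any other library. These 4 were chosen after their values were seen, and none was tested.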
